A study of Mus musculus with 12 samples.

Results

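The collagen genes of the mouse were followed across 12 total RNA libraries of the trigeminal system. Members were all protein-coding genes of the deposited table whose symbol is Col, a type number, the letter a and a chain number. This gave 44 genes among 21981, with 104 of the table's 57109 transcripts, and the values of a gene's transcripts were summed. The groups were CTG and STG, which are trigeminal ganglia (TG), and CSp5C and SSp5C, which are the spinal trigeminal nucleus caudalis (Sp5C), with 3 numbered libraries each. All came from mice labelled as C57BL/6, an inbred strain, at an age of 8 weeks and called wild type in the series' design, and the series title names long-lasting inflammatory pain of the jaw joint. The labels do not explain the letters S and C, so the letters are used as they stand and differences between them are C minus S. Nothing in the labels ties the libraries to separate animals. The p-values therefore rest on the spread among the 12 libraries as deposited, and that spread may be technical.

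Collagens are proteins of the extracellular matrix in which chains wind around each other into a triple helix. Fibrillar collagens form the load-bearing fibrils of connective tissue, collagen IV forms the sheet of basement membranes, and smaller classes coat fibrils, form beaded filaments or stay anchored in the cell membrane. A peripheral ganglion is wrapped in a connective tissue capsule and its nerve fibres are ensheathed by Schwann cells that lie on a basement membrane. In the central nervous system fibrillar collagen is known mainly from the meninges and from vessel walls.

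The unit is FPKM, a fragment count scaled to transcript length and library size, so that genes can be set side by side. Differences between groups are differences of log2(FPKM + 1), which understate the change of low genes, and were tested with limma over all genes whose mean over the compared libraries was at least 1 FPKM. Genes with a Benjamini-Hochberg adjusted p under 0.05 passed. The files hold no read counts, so the depth of the libraries is unknown and no counting error can be given.

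The tissue labels were checked against markers. The summed level of 10 sensory neuron markers was 909 to 1082 FPKM in TG libraries and 7.50 to 22.2 FPKM in Sp5C libraries, and that of 6 markers of central inhibitory neurons was 0.550 to 1.49 FPKM in TG and 385 to 426 FPKM in Sp5C. Over protein-coding genes the correlation was 0.974 to 0.989 between libraries within a group and 0.765 to 0.803 across the tissues. Some TG libraries stood apart in markers of neighbouring tissue. The summed level of 8 pituitary markers was 2874 FPKM in STG replicate 1 and between 2.57 and 51.7 FPKM in the other TG libraries. The summed level of 12 markers of neutrophils and bone marrow was 931 and 308 FPKM in CTG replicates 1 and 3 and at most 36.8 FPKM in the other TG libraries. In CTG replicate 1, 10 bone markers summed to 118 FPKM (10.7 to 26.0 FPKM in the other TG libraries) and 8 skeletal muscle markers to 19.6 FPKM (at most 1.59 FPKM in the others). The collagen counts and some single results are also given without CTG replicate 1, STG replicate 1 or both. CTG replicate 3 was left out only within ranges and counts over single libraries.

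The start regions of 6 genes are shown because the results turn on them. Col28a1 had the largest difference between the tissues, Col1a2 and Col3a1 were among the most abundant members, Col4a1 and Col4a2 start next to each other, and Col25a1 fell most in TG. Each line runs 5′ to 3′ on the gene's strand over 300 bases, from 250 before to 50 after the start, and is taken from RefSeq (GRCm38.p6). The windows lie at chr6:8192568-8192867 (minus strand), chr6:4505368-4505667 (plus), chr1:45311288-45311587 (plus), chr8:11312777-11313076 (minus), chr8:11312555-11312854 (plus) and chr3:130180595-130180894 (plus). Capitals mark exact matches on either strand to the letters TATAAA, known as a TATA box, the letters CCAAT, known as a CCAAT box, and the letters GGGCGG, known as a GC box. No marked match overlaps another within a line. RefSeq starts can lie at some distance from the gene ends given further on, which are from GENCODE.
Col28a1: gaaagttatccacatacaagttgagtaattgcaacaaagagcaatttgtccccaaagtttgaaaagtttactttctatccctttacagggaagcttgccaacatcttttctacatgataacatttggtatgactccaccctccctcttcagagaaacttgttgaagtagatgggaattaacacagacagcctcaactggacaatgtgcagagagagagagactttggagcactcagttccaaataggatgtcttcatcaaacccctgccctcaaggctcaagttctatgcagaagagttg
Col1a2: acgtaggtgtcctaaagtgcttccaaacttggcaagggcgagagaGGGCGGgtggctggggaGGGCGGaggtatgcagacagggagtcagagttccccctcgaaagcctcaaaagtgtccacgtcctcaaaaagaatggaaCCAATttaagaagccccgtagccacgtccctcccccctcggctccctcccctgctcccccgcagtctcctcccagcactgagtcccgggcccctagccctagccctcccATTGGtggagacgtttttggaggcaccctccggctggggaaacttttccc
Col3a1: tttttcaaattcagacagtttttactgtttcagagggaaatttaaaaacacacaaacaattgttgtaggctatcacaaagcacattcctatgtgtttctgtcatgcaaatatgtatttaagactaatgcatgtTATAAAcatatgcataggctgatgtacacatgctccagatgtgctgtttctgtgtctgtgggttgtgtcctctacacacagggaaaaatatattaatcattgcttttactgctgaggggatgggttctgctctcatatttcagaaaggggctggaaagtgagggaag
Col4a1: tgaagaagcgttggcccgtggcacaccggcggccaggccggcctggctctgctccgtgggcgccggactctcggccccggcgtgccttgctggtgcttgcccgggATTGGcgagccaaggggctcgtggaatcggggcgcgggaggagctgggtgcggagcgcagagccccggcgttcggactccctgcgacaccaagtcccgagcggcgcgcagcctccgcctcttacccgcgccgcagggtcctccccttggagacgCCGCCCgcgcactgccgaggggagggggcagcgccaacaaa
Col4a2: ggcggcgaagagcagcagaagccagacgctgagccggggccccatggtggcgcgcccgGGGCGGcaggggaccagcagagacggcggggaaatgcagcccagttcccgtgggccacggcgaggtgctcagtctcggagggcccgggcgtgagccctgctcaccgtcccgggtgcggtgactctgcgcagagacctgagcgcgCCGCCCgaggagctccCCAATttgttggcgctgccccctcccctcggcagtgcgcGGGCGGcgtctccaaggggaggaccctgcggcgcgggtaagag
Col25a1: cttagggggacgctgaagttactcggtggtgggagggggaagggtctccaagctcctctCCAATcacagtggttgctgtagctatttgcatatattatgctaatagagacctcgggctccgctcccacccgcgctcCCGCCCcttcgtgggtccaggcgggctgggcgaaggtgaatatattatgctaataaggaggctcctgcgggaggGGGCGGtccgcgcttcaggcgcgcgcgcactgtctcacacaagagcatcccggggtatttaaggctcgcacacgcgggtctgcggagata

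The window of Col3a1 holds TATAAA once, and the other windows shown hold none. The Col1a2 window holds 2 matches each to CCAAT and GGGCGG, and the Col28a1 window holds none of the motifs. Col4a1 and Col4a2 lie head to head on chromosome 8 and their windows share 78 bases. The CCGCCC in the Col4a1 line and the last GGGCGG in the Col4a2 line are thus the same letters read on opposite strands. This match lies after the RefSeq start of both genes. A window was available for 35 of the 44 members (38 windows in all), and the members without one were Col1a1, Col2a1, Col4a3, Col5a2, Col9a3, Col12a1, Col14a1, Col22a1 and Col26a1. Of the 38 collagen windows, 5 (13.2%) hold TATAAA, against 13.6% of all 32851 windows, and 13 (34.2%) hold CCAAT, against 37.4%. GGGCGG is in 23 (60.5%), against 35.7%, and the median GC content was 59.8% against 52.7%. These are counts of letters and were not tested, and no marked match was tested as a promoter element.

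Collagen RNA was far more abundant in the ganglion than in the brainstem nucleus. Of the 44 members, 35 had a higher mean in TG and 9 a higher mean in Sp5C, with no share counted over all genes. The summed collagen level was 618, 806 and 1117 FPKM in TG (lowest, median and highest of 6 libraries) and 98.3, 125 and 152 FPKM in Sp5C. This was 0.212% to 0.390% of all protein-coding FPKM in TG and 0.0344% to 0.0484% in Sp5C. Of 31 members tested, 25 were higher in TG and 3 were lower, where 36.2% of all 13081 genes tested were higher and 35.0% lower. Whatever the p, 26 of the 31 lay above 0 (50.8% of all genes). A log2 difference of at least 1 was reached upward by 21 members (9.82% of all genes). The libraries of the tissues did not overlap for 24 tested members that were higher and 3 that were lower, against 27.6% and 26.1% of all genes. The median log2 difference was 1.59 over the tested members and 0.01 over all genes.

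The filter bears on these counts, since a gene that is high in a single tissue passes through that tissue. Among the tested members, 6 (Col2a1, Col5a3, Col14a1, Col24a1, Col26a1 and Col28a1) had a mean under 1 FPKM in Sp5C and 1 (Col19a1) in TG. Among the 24 with at least 1 FPKM in both tissues, 19 were higher and 2 lower. The share over all genes with that level in both tissues was not counted, so these counts have no background. The 13 members that were not tested were Col4a3, Col4a4, Col4a6, Col6a4, Col6a5, Col6a6, Col7a1, Col9a1, Col10a1, Col13a1, Col17a1, Col20a1 and Col22a1. Without CTG replicate 1 and STG replicate 1 together, 23 members were higher and 4 lower. The share over all genes in that fit is not given here. In bulk tissue, fewer cells of a type and less RNA per cell cannot be told apart.

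**Figure D1:**
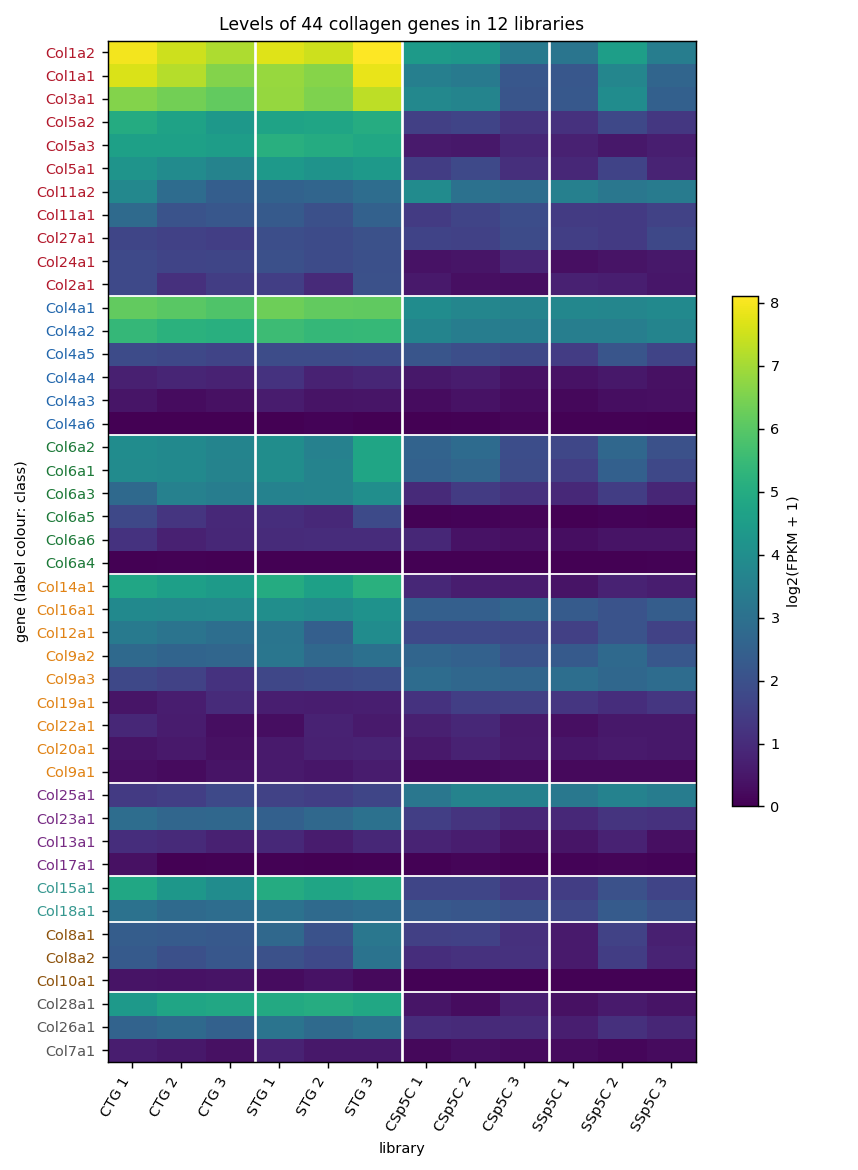
Levels of 44 collagen genes (rows, grouped by class and coloured by class) in 12 libraries (columns, CTG, STG, CSp5C, SSp5C), as log2(FPKM + 1) on a colour scale. Most rows of fibrillar collagens, collagen VI and multiplexins are brighter in the 6 TG libraries, while Col25a1, Col9a3 and Col19a1 are brighter in the 6 Sp5C libraries.

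The fibrillar collagens led the ganglion. All 11 were tested, 9 were higher in TG and none was lower, against 36.2% and 35.0% of all genes. Among the 9, Col5a3, Col2a1 and Col24a1 averaged under 1 FPKM in Sp5C (0.588, 0.435 and 0.415 FPKM) and passed the filter through TG. Col1a2 (chr6:4504814-4541544), the second chain of type I collagen, was the most abundant member by mean in both tissues. It lay below Col4a1 and Col4a2 in CSp5C replicate 3 and in SSp5C replicates 1 and 3. It had 250, 177 and 138 FPKM in CTG and 208, 180 and 275 FPKM in STG. In Sp5C it had 20.3, 18.5 and 9.05 FPKM in CSp5C and 7.97, 22.4 and 9.82 FPKM in SSp5C. Every TG library thus lay above every Sp5C library, while libraries of a single tissue differed by up to 2.80-fold in Sp5C. The log2 difference was 3.79 (SE 0.28, adjusted p = 4.71e-07).

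Col1a1 (chr11:94936224-94953042), which supplies the other chain of type I collagen, had 199, 148 and 95.6 FPKM in CTG and 116, 98.2 and 227 FPKM in STG. Its Sp5C values were 10.3, 9.06 and 3.63 FPKM in CSp5C and 3.61, 12.1 and 5.29 FPKM in SSp5C. CTG replicate 1 and STG replicate 3 were highest in TG, and the tissues did not overlap, with a log2 difference of 4.20 (SE 0.34, adjusted p = 1.16e-06). Col3a1 (chr1:45311538-45349706), the fibril collagen of vessels and soft tissue, had 95.4, 82.2 and 70.8 FPKM in CTG and 113, 92.7 and 156 FPKM in STG. In Sp5C it had 12.8, 11.7 and 3.40 FPKM in CSp5C and 3.67, 14.4 and 4.58 FPKM in SSp5C. The Col3a1 difference was 3.60 (SE 0.36, adjusted p = 5.49e-06), again without overlap. Together these 3 genes made up 49.2% to 58.9% of collagen FPKM in TG and 15.5% to 32.2% in Sp5C, and the ratio of Col1a1 to Col1a2 was 0.545 to 0.834 in TG and 0.401 to 0.540 in Sp5C.

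Type V chains, which start fibrils and limit their width, rose together. Col5a3, a chain that rat Schwann cells are known to make, had 23.2, 23.2 and 22.1 FPKM in CTG and 34.0, 30.9 and 27.2 FPKM in STG. It had 0.508, 0.433 and 0.890 FPKM in CSp5C and 0.667, 0.442 and 0.588 FPKM in SSp5C. All Sp5C values were under 1 FPKM, and the log2 difference was 4.12 (SE 0.079, adjusted p = 3.87e-12). Col5a2 had 30.9, 24.4 and 19.1 FPKM in CTG and 25.2, 26.5 and 31.4 FPKM in STG, while it had 1.90, 2.16 and 1.33 FPKM in CSp5C and 1.22, 2.37 and 1.5 FPKM in SSp5C. Its difference was 3.31 (SE 0.14, adjusted p = 1.78e-09), and that of Col5a1 was 2.82 (SE 0.17, adjusted p = 4.49e-08), at 16.4 ± 3.23 FPKM in TG and 1.51 ± 0.709 FPKM in Sp5C (SD, n = 6 each). Relative to Col5a1, Col5a3 stood at 1.35 to 1.96 in TG and at 0.174 to 0.796 in Sp5C, so the chains did not scale alike. Col3a1 and Col5a2 are neighbours on chromosome 1, with 24.6 kb between them.

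The cartilage-type and minor fibrillar genes were lower in level and mixed. Col24a1, Col2a1 and Col11a1 were higher in TG by 1.34, 0.96 and 0.74 on the log2 scale. In the C libraries with the replicate number as a block, Col11a1 did not pass (0.69, adjusted p = 0.0631). Col11a2, a cartilage fibril chain, averaged 6.67 ± 3.06 FPKM in TG and 9.32 ± 2.79 FPKM in Sp5C (SD, n = 6 each) and did not pass, at −0.46 (SE 0.24, adjusted p = 0.102). It was 12.7 FPKM in CTG replicate 1, the library with the high bone markers, and 4.42 to 6.48 FPKM in the other TG libraries. Without that library the Col11a2 difference was −0.65 and passed (adjusted p = 0.0101), as it did in the blocked fit of the C libraries at −0.26 (adjusted p = 0.0464). Col27a1 had 2.41 ± 0.515 FPKM in TG and 2.09 ± 0.376 FPKM in Sp5C and did not pass (0.14, SE 0.082, adjusted p = 0.147). Without SSp5C replicate 3 it passed at 0.19 (adjusted p = 0.0493).

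Basement membrane collagen was higher in the ganglion through Col4a1 and Col4a2, the chains of the common collagen IV network. Col4a1 had 70.9, 64.2 and 57.7 FPKM in CTG and 78.5, 70.3 and 69.3 FPKM in STG. It had 14.3, 12.1 and 11.4 FPKM in CSp5C and 12.5, 12.3 and 13.5 FPKM in SSp5C. The tissues did not overlap, the libraries of each were close together, and the log2 difference was 2.34 (SE 0.065, adjusted p = 5.52e-11). Col4a2 had 41.2, 35.2 and 33.6 FPKM in CTG and 46.3, 41.4 and 42.3 FPKM in STG. Its Sp5C levels were 11.5, 9.88 and 9.53 FPKM in CSp5C and 10.1, 10.005 and 11.6 FPKM in SSp5C. Col4a2 also did not overlap between the tissues and differed by 1.84 (SE 0.066, adjusted p = 4.25e-10). These genes start on opposite strands with 22 bases in common (chromosome 8). Col4a1 stood at 1.64 to 1.82 times Col4a2 in TG and at 1.16 to 1.24 times in Sp5C, a ratio that did not overlap between the tissues.

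The other collagen IV chains form the networks of kidney filters and some epithelia and were low. Col4a5, which had 2.61, 2.37 and 2.14 FPKM in CTG and 2.70, 2.70 and 2.74 FPKM in STG, had 3.42, 2.85 and 2.36 FPKM in CSp5C and 1.74, 3.37 and 2.17 FPKM in SSp5C. The tissues overlapped and the difference was −0.02 (SE 0.11, adjusted p = 0.855). Its neighbour Col4a6, with 1308 bases between the start sites on the X chromosome, had 0.00558 and 0.00689 FPKM in CTG replicates 1 and 3 and was listed at 0 in CTG replicate 2, and it had 0.00758, 0.0476 and 0.002735 FPKM in STG. It was listed at 0 in CSp5C replicate 1, had 0.0340 and 0.0802 FPKM in CSp5C replicates 2 and 3, and had 0.0239, 0.0294 and 0.0108 FPKM in SSp5C. The tissues overlapped, with all values near 0. Col4a4 had 0.647, 0.777 and 0.705 FPKM in CTG and 1.26, 0.705 and 0.834 FPKM in STG, while it had 0.443, 0.550 and 0.312 FPKM in CSp5C and 0.304, 0.437 and 0.295 FPKM in SSp5C. Every TG library was above every Sp5C library, but Col4a4 lay under the filter and was not tested. Col4a3, whose start lies 71 bases from that of Col4a4, had 0.380, 0.208 and 0.276 FPKM in CTG and 0.547, 0.332 and 0.383 FPKM in STG. In Sp5C, Col4a3 had 0.216, 0.320 and 0.216 FPKM in CSp5C and 0.128, 0.238 and 0.263 FPKM in SSp5C, so the tissues overlapped.

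**Figure D2:**
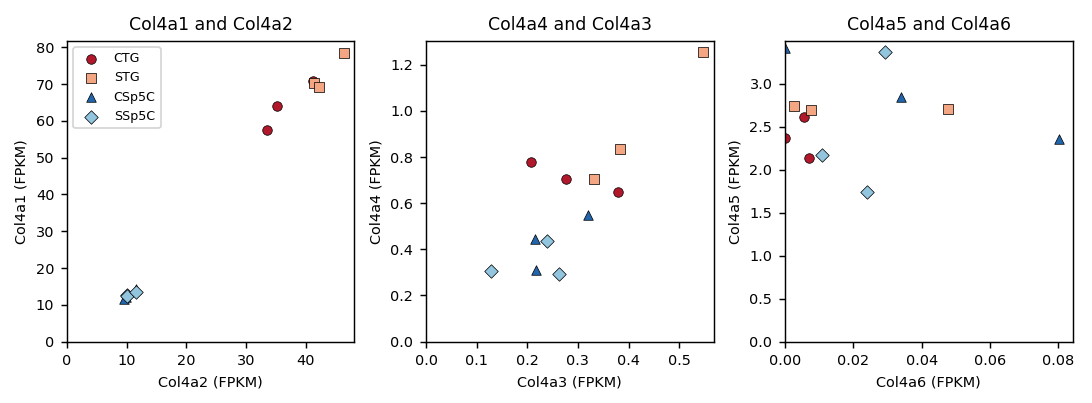
Levels in FPKM of the 3 pairs of collagen IV genes that start next to each other, with Col4a1, Col4a4 and Col4a5 on the vertical axes against Col4a2, Col4a3 and Col4a6. Each point is 1 library, with colour and shape by group. Col4a1 and Col4a2 separate the tissues, while Col4a5 lies between 1.74 and 3.42 FPKM in both.

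Collagen VI forms beaded filaments around cells, and its chains Col6a1, Col6a2 and Col6a3 all rose. Their log2 differences were 1.82 (SE 0.23, adjusted p = 3.62e-05), 1.66 (SE 0.24, adjusted p = 0.000103) and 2.36 (SE 0.16, adjusted p = 1.47e-07). Col6a1 and Col6a2, neighbours on chromosome 10, stood at a ratio of 0.971 to 1.05 in TG and 0.784 to 0.959 in Sp5C. The related chains Col6a4, Col6a5 and Col6a6 lie side by side on chromosome 9 and were under the filter. Col6a5 had 0.891 to 2.5 FPKM in TG and 0.00827 to 0.0918 FPKM in Sp5C without overlap, Col6a6 had 0.674 to 1.27 FPKM in TG and 0.224 to 0.874 FPKM in Sp5C, and Col6a4 was under 0.05 FPKM throughout.

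The fibril-associated collagens, which bind to the surface of fibrils, had 4 of 6 tested members higher and 2 lower, against 36.2% and 35.0% of all genes. Col14a1, a member found in mechanically loaded tissue, had 26.9, 22.9 and 20.3 FPKM in CTG and 30.5, 23.3 and 34.2 FPKM in STG. It had 0.889, 0.553 and 0.524 FPKM in CSp5C and 0.337, 0.723 and 0.586 FPKM in SSp5C. There was no overlap, and the difference was 4.08 (SE 0.11, adjusted p = 4.28e-11). Col16a1 was higher by 1.52 (SE 0.066, adjusted p = 2.06e-09), Col12a1 by 1.41 (SE 0.21, adjusted p = 0.000106) and Col9a2 by 0.41 (SE 0.13, adjusted p = 0.0125). The Col9a2 call was lost in the C libraries alone (0.26, adjusted p = 0.184) and without CTG replicate 1 and STG replicate 1 together (0.33, adjusted p = 0.0636).

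Col9a3, a chain of the type IX collagen of cartilage, fell in TG. It had 2.40, 2.06 and 1.29 FPKM in CTG and 2.30, 2.56 and 2.80 FPKM in STG, and 6.23, 5.47 and 5.25 FPKM in CSp5C and 6.70, 5.60 and 6.23 FPKM in SSp5C. The tissues did not overlap, and the difference was −1.11 (SE 0.095, adjusted p = 7.87e-07). Col9a2, which codes for another chain of the same protein, thus had the opposite sign, while the third chain, Col9a1, had 0.181 to 0.536 FPKM in TG and 0.119 to 0.178 FPKM in Sp5C and was not tested. Col19a1, known in the mouse brain from subsets of neurons, had 0.390, 0.564 and 1.01 FPKM in CTG and 0.617, 0.563 and 0.595 FPKM in STG. It had 1.27, 1.86 and 1.92 FPKM in CSp5C and 1.42, 1.11 and 1.43 FPKM in SSp5C. All Sp5C libraries were higher, and the difference was −0.62 (SE 0.10, adjusted p = 0.000204). Col20a1 and Col22a1 were at most 0.732 and 0.878 FPKM in any library.

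Membrane collagens were split. Col25a1 (chr3:130131501-130599877), a transmembrane collagen made by neurons and needed in mice for motor innervation of muscle, fell most. It had 1.60, 1.82 and 2.42 FPKM in CTG and 2.01, 1.83 and 2.26 FPKM in STG, and 8.30, 11.3 and 10.8 FPKM in CSp5C and 8.53, 11.1 and 9.67 FPKM in SSp5C. No TG library came near the Sp5C range, and the difference was −1.87 (SE 0.096, adjusted p = 8.54e-09). In Sp5C it ranked 4 among all collagens by mean level. Col23a1 rose by 1.59 (SE 0.12, adjusted p = 1.86e-07). Col13a1, a collagen of the nerve-muscle synapse, had 0.523 to 1.11 FPKM in TG and 0.246 to 0.769 FPKM in Sp5C, and Col17a1, a collagen of epithelial anchoring, was at most 0.280 FPKM and highest in CTG replicate 1.

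The remaining classes rose in TG in all 6 members tested, where 36.2% of all genes were higher. Among the 6, Col28a1 and Col26a1 averaged under 1 FPKM in Sp5C (0.394 and 0.936 FPKM) and passed the filter through TG. Col28a1 (chr6:7997808-8192617), known in mice mainly from peripheral nerve, had 19.8, 26.4 and 27.9 FPKM in CTG and 29.4, 31.6 and 27.2 FPKM in STG. It had 0.364, 0.208 and 0.653 FPKM in CSp5C and 0.288, 0.517 and 0.334 FPKM in SSp5C. It had the largest difference of all members, 4.33 (SE 0.10, adjusted p = 1.45e-11). Col15a1, a proteoglycan-like collagen that links basement membranes to fibrils, had 27.6, 18.7 and 14.5 FPKM in CTG and 30.5, 26.2 and 29.3 FPKM in STG. Its Sp5C levels were 2.25, 2.24 and 1.44 FPKM in CSp5C and 1.80, 3.06 and 2.15 FPKM in SSp5C. The difference was 2.99 (SE 0.15, adjusted p = 1.04e-08), while its relative Col18a1, the source of the fragment endostatin, differed by 0.85 (SE 0.10, adjusted p = 1.47e-05). Col26a1 rose by 1.86, Col8a1 by 1.31 and Col8a2 by 1.19. Col7a1, which makes the anchoring fibrils of skin, had 0.285 to 0.707 FPKM in TG and 0.10 to 0.245 FPKM in Sp5C, and Col10a1, the collagen of maturing growth plate cartilage, 0.160 to 0.352 FPKM in TG and 0.0141 to 0.0340 FPKM in Sp5C. Neither overlapped between the tissues and neither was tested.

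**Figure D3:**
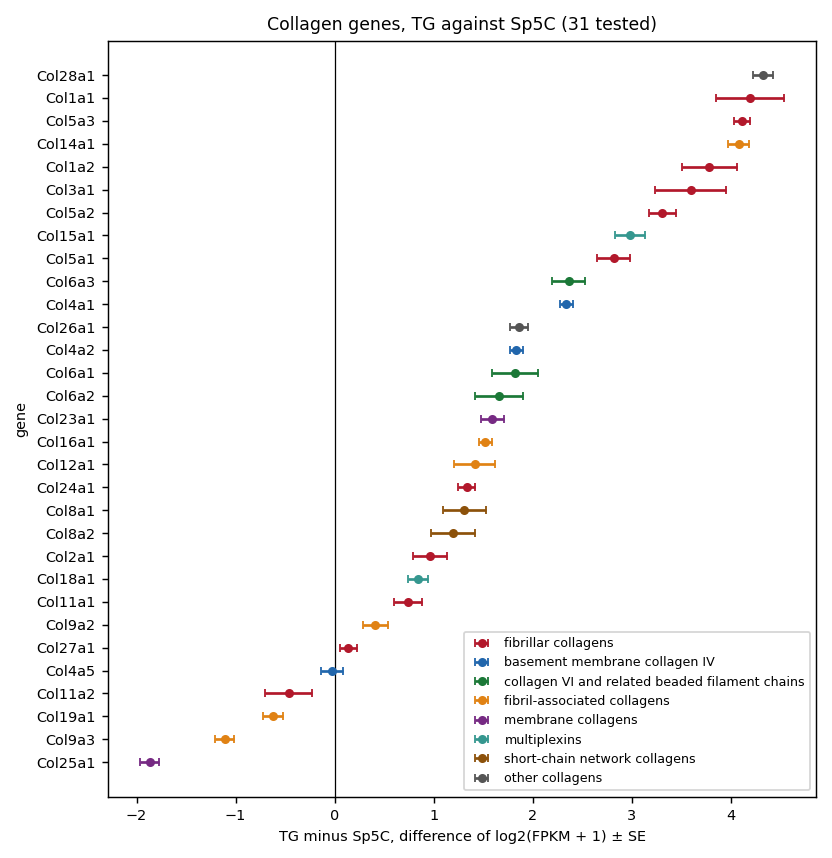
Difference of log2(FPKM + 1) between TG and Sp5C (TG minus Sp5C) for the 31 collagen genes tested, with bars of 1 standard error and colour by class. Points run up to 4.33 (Col28a1) and down to −1.87 (Col25a1).

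Order and spread of the levels differed between the tissues. In TG the order was Col1a2, Col1a1, Col3a1, Col4a1 and Col4a2, and 15 members had a mean of at least 10 FPKM. In Sp5C the order was Col1a2, Col4a1, Col4a2, Col25a1 and Col11a2, and 3 members reached that mean. Neighbours in these orders often lay within their spread. In TG, Col28a1, Col5a3, Col14a1 and Col5a2 averaged 27.1 ± 4.01, 26.8 ± 4.85, 26.4 ± 5.26 and 26.2 ± 4.54 FPKM (SD, n = 6). In Sp5C, Col1a2, Col4a1 and Col4a2 averaged 14.7 ± 6.41, 12.7 ± 1.01 and 10.4 ± 0.893 FPKM (SD, n = 6). The coefficient of variation over the libraries of a tissue was 10.2% in TG and 7.96% in Sp5C for Col4a1, and 37.2% and 49.5% for Col1a1. For Col3a1 it was 29.8% in TG and 60.1% in Sp5C.

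Markers of the meninges also varied between libraries. The summed level of 8 meningeal markers was 37.2, 23.4 and 15.2 FPKM in CTG and 21.7, 22.6 and 45.3 FPKM in STG. In Sp5C it was 47.9, 44.1 and 16.4 FPKM in CSp5C and 8.79, 50.9 and 6.73 FPKM in SSp5C. The Sp5C libraries with high sums, CSp5C replicates 1 and 2 and SSp5C replicate 2, were also those with the most Col1a1, Col1a2, Col3a1, Col5a1, Col6a1, Col6a2 and Col8a1, genes named after their values were seen. Other variable members had another order, with Col24a1, Col28a1 and Col6a5 highest in CSp5C replicate 3 (0.799, 0.653 and 0.0918 FPKM) and Col6a6 in CSp5C replicate 1 (0.874 FPKM). None of the 8 markers was listed at 0 in all libraries of a tissue. Of the 8, 2 were higher in TG and none was lower, where 36.2% and 35.0% of all genes were. Col4a1 lay between 11.4 and 14.3 FPKM over all 6 Sp5C libraries. The part of these markers in the collagen results was not tested.

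**Figure D4:**
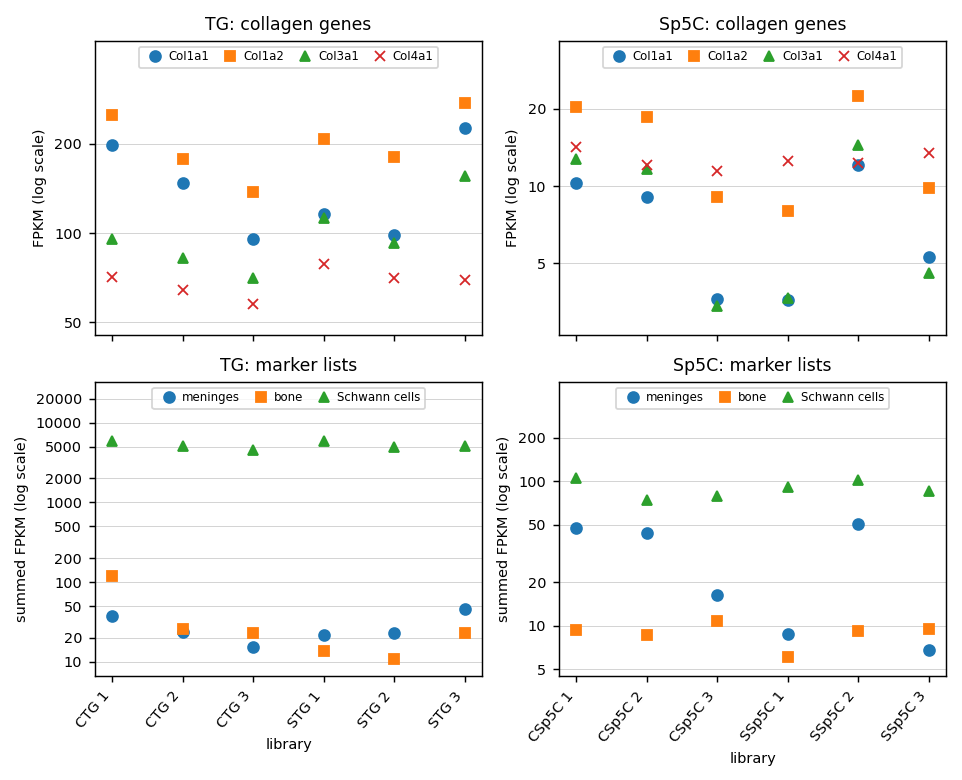
Levels in each library of TG (left) and Sp5C (right), on log axes in FPKM. Upper panels plot 4 collagen genes and lower panels the summed markers of meninges, bone and Schwann cells. Col1a1, Col1a2 and Col3a1 are high in the Sp5C libraries with high meningeal markers, while Col4a1 lies between 11.4 and 14.3 FPKM in all of Sp5C.

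Markers of other cell types that make collagen also differed between the tissues. Their counts stand against 36.2% higher and 35.0% lower over all genes, and several are near or below these shares. The summed level of 10 Schwann cell markers was 4627 to 5960 FPKM in TG and 74.1 to 106 FPKM in Sp5C, and all 10 were higher in TG. Of 10 fibroblast markers 8 were tested, with 2 higher and 4 lower, and sums of 129 to 152 FPKM in TG and 116 to 192 FPKM in Sp5C. Gsn gave the largest part of these sums, with means of 76.2 FPKM in TG and 103 FPKM in Sp5C. Cygb (18.0 and 38.9 FPKM) and Pdgfra (7.02 and 11.3 FPKM) also had lower means in TG. Mfap5 (19.0 and 0.218 FPKM) and Ccl11 (5.07 and 0.0947 FPKM) had higher means there, so the sums do not measure fibroblast content. Of 7 markers of the perineurium, the sheath of nerve bundles, 5 were tested, with 4 higher and 1 (Slc2a1) lower, and sums of 76.4 to 110 FPKM in TG and 56.4 to 74.9 FPKM in Sp5C. The 8 endothelial markers (2 higher, 3 lower) summed to 66.8 to 83.5 FPKM in TG and 83.5 to 96.4 FPKM in Sp5C, and the 9 markers of smooth muscle and pericytes (2 higher, 3 lower) to 59.2 to 92.1 FPKM in TG and 78.4 to 106 FPKM in Sp5C. Of 10 bone markers 5 were tested, with 4 higher and 1 lower, and Mepe was listed at 0 in all Sp5C libraries. The 9 cartilage markers found summed to 13.5 to 22.8 FPKM in TG and 15.8 to 20.0 FPKM in Sp5C. Among these markers, 2 were higher and 3 lower in TG. Hapln1 gave the largest part of the sums in Sp5C, with means of 6.55 FPKM in TG and 8.32 FPKM in Sp5C. Acan and Ucma also had lower means in TG. Cnmd (6.32 and 0.767 FPKM) and Comp (2.18 and 0.0938 FPKM) had higher means there, so the similar sums do not measure cartilage content. All 7 astrocyte and all 7 oligodendrocyte markers were lower in TG, with sums of at most 108 and 97.8 FPKM in TG and at least 698 and 682 FPKM in Sp5C. The part of each of these lists in the collagen results was not tested.

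The genes that make, bind and degrade collagen were read beside the members, and their counts stand against 36.2% higher and 35.0% lower over all genes. Of 19 genes for folding and modification in the secretory pathway, 17 were higher in TG and 1 lower. The collagen galactosyltransferase gene Colgalt2 was higher by 1.92, the collagen chaperone gene Serpinh1 by 1.86 and Crtap, part of the prolyl 3-hydroxylation complex, by 1.65, whereas P3h4 fell by 0.48. Of 13 tested genes for cleavage of procollagen and cross-linking, 11 were higher and 1 lower. The cross-linking enzyme gene Lox differed by 2.68, the procollagen cleavage enhancer gene Pcolce by 1.96 and Sparc, a collagen-binding protein, by 0.94, while Adamts3, a protease for the amino end, fell by 0.36.

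Of 10 tested fibril-binding proteoglycans and related proteins, 8 were higher and 1 lower, led by Ogn (4.77), Lum (4.25) and Dcn (3.76), which organise fibril width. Vcan, a large proteoglycan of brain matrix, fell by 1.82. Of 13 other basement membrane genes, 9 were higher, led by the laminin chain gene Lamb1 (3.77), the perlecan gene Hspg2 (3.25) and Lama4 (2.82), and 1, Lama1, fell by 0.65. Among 10 tested collagen receptors, 7 were higher, with Adgrg6 at 2.79, Itga2 at 1.96 and Itgb1 at 1.63, and the receptor kinase gene Ddr1 fell by 1.14. Of 12 genes of collagen breakdown and its inhibitors, 9 were higher, with Mmp2 at 2.63, Fap at 1.75 and Mmp15 at 1.67, and Timp4 and Mmp16 fell by 3.00 and 0.83. TGF-beta signalling, which induces fibrillar collagen in many cell types, had 8 of 15 higher and 5 lower, the lower share being near that of all genes. Tgfbr3, Tgfbr2 and Smad2 were higher by 1.94, 1.23 and 0.73, and the inhibitor genes Smad7 and Skil fell by 1.96 and 0.97, as did Ltbp4 by 0.74. The median log2 difference was 0.60, 0.73, 1.15, 1.46, 1.16, 1.02 and 0.28 over the tested genes of these 7 lists in the order given, against 0.01 over all genes. All of the named genes of these lists passed, with adjusted p of at most 0.00484 (limma). The lists were chosen with results of these data known.

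Single transcripts were also compared. Of 41 collagen transcripts tested singly, 33 were higher in TG and 3 lower, where 53.5% of all 20082 transcripts passed in either direction. The share over all transcripts in each direction is not given here. As with genes, a transcript that is high in a single tissue passes the filter through that tissue. ENSMUST00000023053 of Col14a1, ENSMUST00000130846 of Col6a3 and ENSMUST00000082303 of Col15a1 were tested through TG in this way. For Col14a1, the transcript ENSMUST00000023053 took 47.3% to 62.6% of the gene's FPKM in TG and at most 3.12% in Sp5C. Of Col6a3, ENSMUST00000130846 took 20.4% to 27.6% in TG and was listed at 0 in all Sp5C libraries. For Col2a1, the shorter transcript ENSMUST00000088355 (4862 bases) took 0.692% to 94.1% in TG, with a median of 64.7%, and at most 7.76% in Sp5C, with STG replicate 2 (0.692%) inside the Sp5C range. Differences in these shares were not tested. Shares of similar transcripts rest on the authors' assignment of reads and are uncertain.

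Annotated long non-coding RNA genes lay within 5 kb of 6 collagen genes, 7 in all, with positions found for 2301 of 2315 such genes. The 2810430I11Rik gene, on the opposite strand and overlapping the start of Col5a1, had 1.20 ± 0.216 FPKM in TG and 0.0476 ± 0.0127 FPKM in Sp5C (SD, n = 6 each), a log2 difference of 1.63 (pseudocount 0.5, adjusted p = 4.86e-10). Of all 1431 annotated long non-coding genes tested, 30.3% were higher and 26.1% lower. Gm15418, antisense to Col4a1, had 0.309 ± 0.0959 FPKM in TG and 0.545 ± 0.151 FPKM in Sp5C and was not tested. On the same strand as their collagen genes, Gm43921 in Col1a2, Gm38211 in Col5a2, Gm44716 in Col4a1 and BX649560.1 at the start of Col20a1 were higher by 2.57, 1.45, 1.06 and 0.57, and Gm20485 in Col26a1 was not tested. Where these genes lie inside the collagen gene, their reads cannot be told apart from unspliced collagen RNA, while BX649560.1 starts upstream of Col20a1 and overlaps it in part. The filter of a mean of at least 0.5 FPKM bears on these calls. In Sp5C, 2810430I11Rik, Gm38211 and Gm44716 averaged 0.0476, 0.0907 and 0.306 FPKM and so passed the filter through TG.

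The C against S comparison within ganglia asked whether collagens differ with the letter. No collagen gene passed in limma. Of 31 tested, 8 had an unadjusted p under 0.05, where 606 of 12906 genes (4.70%) had one. Only 1 gene of all 12906 passed (0.00775%), and it was higher in CTG. The members leaned to lower values in CTG, with 26 of 31 below 0, where 52.0% of all genes were, and a median log2 difference of −0.24 against −0.01 over all genes. The 3 CTG libraries lay below the 3 STG libraries for 8 tested members, against 6.32% of all genes, namely Col4a2, Col4a5, Col5a3, Col6a3, Col16a1, Col24a1, Col26a1 and Col27a1. These counts are descriptions of libraries that the members share. Without STG replicate 3, which was highest of the TG libraries for Col1a1, Col1a2, Col3a1, Col6a1 and Col12a1 among others, 20 members were below 0, and without CTG replicate 1, 30 were. The numbers tested and the shares over all genes in these fits are not given here.

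The smallest p belonged to Col5a3, whose 3 CTG values (22.1 to 23.2 FPKM) were below the 3 STG values (27.2 to 34.0 FPKM). The difference was −0.41 (SE 0.086, adjusted p = 0.912, limma). Col27a1, a minor fibrillar collagen, had 2.21, 1.93 and 1.81 FPKM in CTG and 2.89, 2.58 and 3.07 FPKM in STG, a difference of −0.37 (SE 0.0999, adjusted p = 0.960). Col26a1 had 4.92, 5.85 and 4.79 FPKM in CTG and 7.72, 6.03 and 7.28 FPKM in STG, a difference of −0.37 (SE 0.11, adjusted p = 0.960). For Col26a1 the sign turned when its most abundant transcript alone was used (0.32). Col16a1 had 13.4, 12.8 and 13.0 FPKM in CTG and 15.2, 13.8 and 16.5 FPKM in STG, which gave −0.20 (SE 0.073, adjusted p = 0.960), and Col4a2 differed by −0.24 (SE 0.090, adjusted p = 0.960). The most abundant members overlapped between the groups, with differences of 0.04 (SE 0.39) for Col1a1, −0.25 (SE 0.25) for Col1a2 and −0.51 (SE 0.20, adjusted p = 0.960) for Col3a1. The sign of Col1a1 turned without CTG replicate 1, STG replicate 1 or STG replicate 2.

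A transcript of Col15a1, named after its values were seen, was above 0 in CTG libraries only. ENSMUST00000082303 (5102 bases) had 8.09, 4.06 and 2.43 FPKM in CTG while STG and Sp5C libraries were all listed at 0. It made up 29.3%, 21.7% and 16.7% of the gene in CTG. Over all transcripts, 11 of 19560 (0.0562%) had values above 0 in every library of one ganglion group and 0 in the other. Its adjusted p was 0.318 (limma), and none of 46 collagen transcripts tested passed (12 of all transcripts, 0.0613%). In CSp5C against SSp5C none of 27 collagen transcripts passed (0.0206% of all transcripts). The main transcript of Col15a1, ENSMUST00000102917 (5172 bases), had the opposite order. It had 19.0, 14.3 and 11.9 FPKM in CTG and 29.9, 25.7 and 21.9 FPKM in STG. Its log2 difference was −0.76 (SE 0.19, adjusted p = 0.951, limma). An exact 0 may be a failed estimate, and how reads were shared between these transcripts was not tested.

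The same comparison in Sp5C, CSp5C against SSp5C, likewise gave no collagen gene past the threshold among 25 tested in limma. A single member had an unadjusted p under 0.05, where 637 of 12690 genes (5.02%) had one, and 4 of all genes passed (0.0315%), of which 1 was higher (0.00788%) and 3 were lower (0.0236%) in CSp5C. Here 20 of 25 members were above 0, where 50.3% of all genes were, with a median of 0.15. This count was 11 without SSp5C replicate 1 and 17 to 22 without any other single library. The numbers tested and the shares over all genes in those fits are not given here. Col16a1 alone among the tested members had no overlap, where 4.69% of all genes were higher and 6.20% lower without overlap. It had 4.47, 4.53 and 5.22 FPKM in CSp5C and 4.04, 3.18 and 4.21 FPKM in SSp5C, a difference of 0.26 (SE 0.11, adjusted p = 0.931).

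The next smallest p belonged to Col8a1, a collagen of vessel walls, with 1.93, 1.95 and 1.19 FPKM in CSp5C and 0.499, 2.01 and 0.639 FPKM in SSp5C, a difference of 0.45 (SE 0.28). Col6a1 had 4.70, 5.36 and 2.67 FPKM in CSp5C and 1.81, 4.66 and 2.42 FPKM in SSp5C, a difference of 0.43 (SE 0.31). In both, the lone high SSp5C library was replicate 2, which also had the highest sum of meningeal markers. Col19a1 and Col11a1 differed by 0.20 (SE 0.13) and 0.20 (SE 0.14), and Col1a1, Col1a2 and Col3a1 by 0.16 (SE 0.50), 0.29 (SE 0.45) and 0.31 (SE 0.62). The sign of Col1a1 turned without CSp5C replicate 1, CSp5C replicate 2 or SSp5C replicate 1, and that of Col3a1 without SSp5C replicate 1. For Col19a1 it turned with its most abundant transcript alone. The 7 lists of collagen-handling genes also had no gene past the threshold in either C against S comparison (limma).

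**Figure D5:**
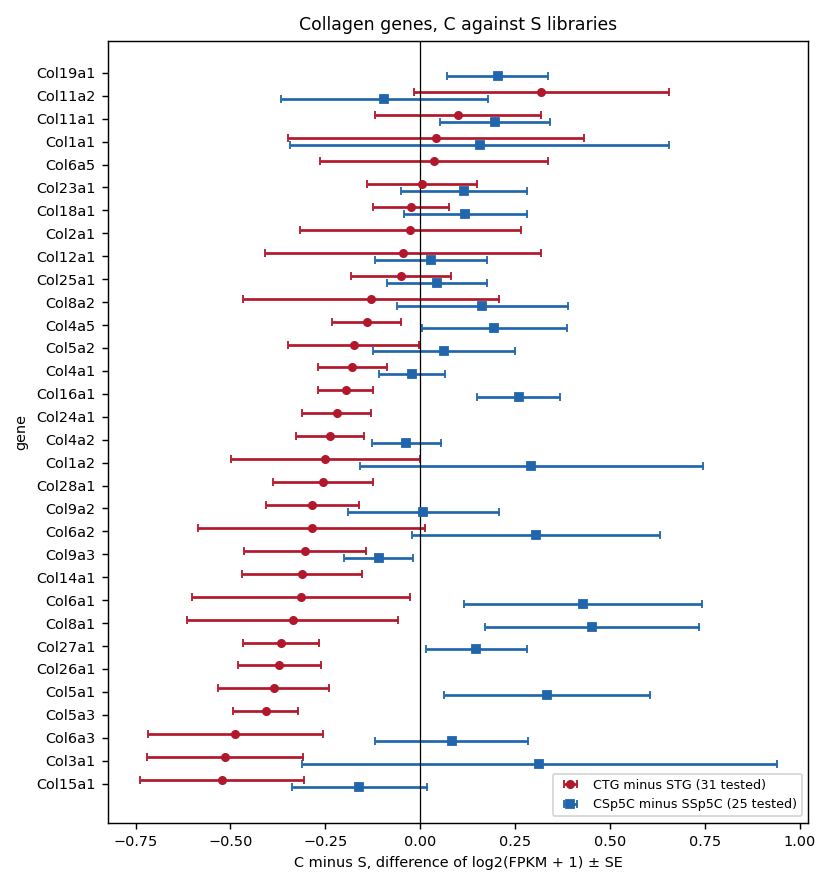
C minus S differences of log2(FPKM + 1) with bars of 1 standard error, for CTG against STG (red circles, 31 genes) and CSp5C against SSp5C (blue squares, 25 genes). Red points lie mostly left of 0 (26 of 31) and blue points mostly right (20 of 25), and no gene passed the threshold in either.

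Whether the C against S difference itself differed between the tissues was tested with all 12 libraries. No gene of 13081 passed (0%), in limma, and 708 (5.41%) had an unadjusted p under 0.05, as did 4 of the 31 members. The estimate was below 0, which means that C minus S was lower in TG than in Sp5C, for 29 of 31 members and 51.9% of all genes, with a median of −0.29 over the members. The smallest p belonged to Col16a1, with −0.46 (SE 0.13, adjusted p = 0.862). Col27a1 followed at −0.52 (SE 0.16, adjusted p = 0.862), Col5a3 at −0.44 (SE 0.16, adjusted p = 0.882), Col26a1 at −0.46 (SE 0.18, adjusted p = 0.882) and Col5a1 at −0.72 (SE 0.34, adjusted p = 0.898). Col1a1, Col1a2 and Col3a1 gave −0.11 (SE 0.69), −0.54 (SE 0.56) and −0.83 (SE 0.71). The sign of Col26a1 turned with its most abundant transcript alone (0.16), and that of Col1a1 turned in 5 of the 12 fits that left out a library.

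Genes whose level followed Col1a1 most closely over the 6 TG libraries were looked up as a description. They were Col6a5 (r = 0.985), Slc25a37 (r = 0.984), Adipor1 (r = 0.984), Msto1 (r = 0.983) and Nudt13 (r = 0.978). They are the highest r among all genes with a mean of at least 1 FPKM in these libraries. A high r can go with little change in level, since Adipor1 ran only from 36.6 to 38.6 FPKM and Msto1 from 7.90 to 9.05 FPKM. Of the other members, Col12a1 ranked 217 (r = 0.873) and Col1a2 ranked 243 (r = 0.864). The 6 points share the tissue and their library scaling, and the highest 2 of Col1a1, CTG replicate 1 and STG replicate 3, also had the most Col6a5 (2.40 and 2.5 FPKM) and Slc25a37 (7.30 and 8.23 FPKM).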

How the data were processed

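Total RNA of 12 libraries was sequenced after ribosomal RNA removal with stranded libraries from 3 µg of RNA, per the labels' protocols. The authors deposited FPKM values per transcript and library. The submitters' processing notes name HISAT2, Cuffdiff 2.1.1 and StringTie 1.3.1. Which build they mapped to is not given in the sources used here. FPKM were summed per gene, and log2(FPKM + 1) was fitted with limma 3.58.1 in R 4.3.3, with trend and robust moderation, two-sided, for genes with a mean of at least 1 FPKM, with Benjamini-Hochberg adjustment over all genes at 0.05. TG against Sp5C and the difference of effects used 12 libraries, and each C against S comparison 6. Long non-coding RNA used a pseudocount of 0.5 and a mean of at least 0.5. The fit was tested on simulated data. Assembled loci without names were not used. Positions are from GENCODE M21 (GRCm38), matched by gene ID for 44 of 44 members, and start windows are from RefSeq. Figures and counts used Python 3.11.15, pandas 2.3.3, numpy 2.4.6 and matplotlib 3.10.9.

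Alternatives were pseudocounts of 0.1 and 5, no filter or a mean of at least 5 FPKM, median-ratio scaling, quantile normalization, no trend and robust moderation, the most abundant transcript, the replicate number as a block, S or C libraries alone and leaving out libraries. The members, gene lists and alternatives were chosen with earlier results of these data known. All members are accounted for. Values of every library are given for the 8 largest positive differences, all members that fell in TG and the collagen IV pairs. In C against S and in the difference of effects, the 5 members with the smallest p and those over 100 FPKM are given, and from each list of collagen-handling genes up to 3 genes in each direction. The same-numbered CTG and CSp5C libraries deviated together (correlations of 0.228 to 0.383), so the C libraries were also fitted with the replicate number as a block. That fit, the single-transcript and long non-coding fits and the counts of signs were added after the data were seen.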

Additional observations from a re-analysis of the deposited data

Results flagged for a closer look

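Col16a1, a fibril-associated collagen, was picked by a search of the 44 members for library values of opposite order in the tissues. All 3 CTG libraries (12.8 to 13.4 FPKM) lay below the 3 STG libraries (13.8 to 16.5 FPKM), whereas all 3 CSp5C libraries (4.47 to 5.22 FPKM) lay above the 3 SSp5C libraries (3.18 to 4.21 FPKM). Of all genes, 6.32% were lower without overlap in CTG and 4.69% higher without overlap in CSp5C. The share of all genes with both patterns at once was not counted. It passed in neither comparison (limma), at −0.20 for CTG against STG (adjusted p = 0.960) and 0.26 for CSp5C against SSp5C (adjusted p = 0.931). The test of the difference of both effects gave −0.46 on the log2 scale (SE 0.13), which did not pass after adjustment over all genes (adjusted p = 0.862, limma).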

How the results depend on the processing

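In TG against Sp5C, 25 of 31 collagen genes tested were higher and 3 lower, against 36.2% and 35.0% of all genes. The higher count ranged from 17 (mean of at least 5 FPKM) to 33 (no filter on low values). The lower count was 1 with a mean of at least 5 FPKM, where fewer genes are tested. The numbers of members tested change with the filter and are not given here, nor are the shares over all genes. These counts therefore do not measure a change in the share of members that passed. Leaving out 1 library at a time gave 24 to 26 higher and 2 to 4 lower. Over all genes, these fits gave 4524 to 4721 higher and 4371 to 4582 lower, with the numbers tested not given here. Near 0, Col4a5 turned sign with its most abundant transcript (0.031) and in the S libraries (0.14), and from −0.098 to 0.071 without single libraries; Col27a1 was −0.12 in the C libraries. Col27a1 passed in the S libraries at 0.40 (adjusted p = 0.0201), and Col11a2 passed there at −0.67 (adjusted p = 0.00194) and at −0.62 (adjusted p = 0.0243) without CTG replicate 1 and STG replicate 1.

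In CTG against STG no collagen gene passed under any alternative. Over all genes, the count higher in CTG was 0 with a mean of at least 5 FPKM and in the fit of all 12 libraries, 2 with quantile normalization, 3 with the most abundant transcript (3 lower), 5 without both replicates 1, and 0 to 6 without single libraries (lower, 0 to 1). Col26a1 turned with its most abundant transcript (0.32; difference of effects, 0.16). Col1a1 turned to −0.016 with quantile normalization, −0.32 without both replicates 1, and between −0.20 and 0.40 without single libraries.

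In CSp5C against SSp5C no collagen gene passed either. The count of genes higher was 0 with no filter, with a mean of at least 5 FPKM, without trend and robust moderation, and in the fit of all 12 libraries, and 0 to 3 without single libraries. The count lower was 5 with a pseudocount of 0.1 or no filter, 1 with the most abundant transcript, 0 with a mean of at least 5 FPKM or all 12 libraries, and 0 to 6 without single libraries. Collagen genes above 0 numbered 20 of 25 in the main fit, 35 with no filter, 4 with a mean of at least 5 FPKM, and 11 to 22 without single libraries. The number of members tested differs with the filter. It is not given for the alternatives, nor is the share over all genes, so 35 and 4 do not measure a change in the lean. Col19a1 turned to −0.066 with its most abundant transcript, Col1a1 lay between −0.17 and 0.58 and Col3a1 between −0.015 and 0.85 without single libraries. For the difference of effects, 0 to 1 genes higher and 0 to 2 lower passed without single libraries, 2 higher without both replicates 1, and Col1a1 lay between −0.54 and 0.25. The cause of these changes was not tested.

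With the replicate block (replicate number as a term), 25 collagen genes were higher and 3 lower in TG, and 0 genes passed in either C against S comparison. In their deviations from the group means, same-numbered CTG and CSp5C libraries correlated at 0.333, 0.228 and 0.383, while the other pairs of groups lay between −0.197 and 0.191. The C libraries alone gave 24 higher and 3 lower collagen genes, and 23 and 4 with the replicate block, a fit added after the data were seen, in which Col27a1 was −0.12 and no sign but that of Col27a1 turned. The shares over all genes in the blocked fits and in the C libraries alone are not given here. Depth is unknown, so no counting limit can be given for members with low values.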
